A study of Mus musculus with 46 samples.

Results

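Glutathione and the glutamyl compounds of mouse kidney, liver and serum were compared among sham-operated males, castrated males and sham-operated females. A compound belonged to the set when its name held glutamyl, glutathione, ophthalmic, pyroglutam or glutamic acid. This gave 67 of 5760 named entries in 6 metabolite tables, under 29 of 2786 distinct names. The 12-week tables held 8 such compounds of 723 in kidney, 14 of 737 in liver and 13 of 1493 in serum, and the 18-month tables held 13 of 985, 13 of 954 and 6 of 868. Grouped mainly by structure, the names were 3 forms of glutamate, 2 of pyroglutamate, 12 glutamyl dipeptides, 9 of the glutathione and tripeptide kind and 3 other glutamyl compounds. Gamma-glutamylcysteine, a dipeptide by structure, was counted with glutathione and not among the 12 dipeptides.

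All mice were wild-type C57BL/6 animals on normal chow. Surgery was done at the age of 8 weeks, and organs were collected at 12 weeks or 18 months. Castrated males carried the removal of the testes and both sham arms a sham operation, and no unoperated group was included. The stated aim concerned mechanisms by which castration bears on healthy ageing, using untargeted metabolomics beside RNA sequencing of kidney and liver. RNA came from 46 libraries in 12 groups, with 3 libraries in each sham group, 6 in the castrated male groups at 12 weeks and 5 at 18 months.

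Each metabolite value is 1 mean relative abundance per group. The sources used here do not give its scale, its spread or the number of animals behind it, so no difference between group means of a compound could be tested, and none is known to exceed the spread between animals. A bare number follows the column name of 2 groups, 8 for the females of 18-month kidney and 6 for the castrated males of 18-month liver, and what it stands for is not stated. Ratios are therefore given as sizes, as log2 of the castrated male or female mean over the sham male mean. Both comparisons share the sham males, so any deviation of the sham males would enter both. Abundances were compared only within a compound and a table, because ionization differs between compounds and the tables were scaled apart. The column sums of the 3 groups differed by at most 1.12-fold within each table except 18-month kidney, where the ratio of the largest to the smallest was 1.31 and females had the smallest.

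Glutathione is a tripeptide of glutamate, cysteine and glycine and the main thiol of the cell. Glutamate-cysteine ligase joins the first pair of residues to gamma-glutamylcysteine and glutathione synthetase adds glycine. Outside the cell gamma-glutamyltransferase, abundant on the brush border of the proximal tubule, moves the gamma-glutamyl group to other amino acids and so makes gamma-glutamyl dipeptides. Gamma-glutamylcyclotransferase turns those dipeptides into pyroglutamate, also called 5-oxoproline, which 5-oxoprolinase opens to glutamate. Ophthalmic acid is made by the same ligase and synthetase from 2-aminobutyrate in place of cysteine, and it lacks the thiol.

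The 12-week liver held the widest differences of the set. In castrated males 4 of the 14 compounds were at least 2-fold lower than in sham males and none was 2-fold higher, while 10.0% of all compounds in that table passed the limit in either direction. In females 5 of 14 were at least 2-fold lower and none 2-fold higher, against 12.1% of all compounds. The median log2 ratio of the 14 was -0.33 in castrated males and -0.49 in females, beside -0.06 and -0.03 over all compounds. Over all compounds, 56.7% had a lower mean in castrated males than in sham males, and 53.9% had a lower mean in females. Of the 14, 13 had a lower mean in castrated males and 11 in females than in sham males. The nearest to 0 of the 13, L-pyroglutamic acid, changed sign when the table was centred on its median.

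L-Glutamic acid, the amino acid that supplies the gamma-glutamyl group, had 12-week liver means of 0.317 for sham males, 0.0146 for castrated males and 0.0148 for females. These are 21.7-fold and 21.4-fold lower than in sham males, and the compound ranked lowest of 737 in both comparisons. Ophthalmic acid had means of 0.226, 0.0202 and 0.0359 in the same order, 11.2-fold and 6.29-fold lower, and ranked 2 from the bottom in both. Glutamylvaline, a dipeptide of glutamate and valine, had means of 0.207, 0.0343 and 0.0344. It was 6.04-fold lower in castrated males and 6.02-fold lower in females. Gamma-glutamylleucine had means of 0.0810, 0.0230 and 0.0257, or 3.52-fold and 3.15-fold lower. For L-glutamic acid, glutamylvaline and gamma-glutamylleucine the castrated male and female means lay within 1.12-fold of each other, and ophthalmic acid was 1.78-fold lower in castrated males than in females.

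These 4 compounds took ranks 1, 2, 3 and 7 among the 737 log2 ratios for castration, counted from the lowest. The others among the lowest 8 were 2-methylglutaric acid, the lipid PG(17:1/18:1), rhapontigenin and the steroid cortodoxone, with log2 ratios from -1.97 to -1.80. By mean over the groups the 4 compounds stood between the 52.5th and the 67.7th percentile of their table. That mean includes the high sham male value, so it does not show how faint the lower group means were. For scale, glutamylalanine, with a mean over the groups of 0.0150, stood at the 32.7th percentile.

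**Figure D1:**
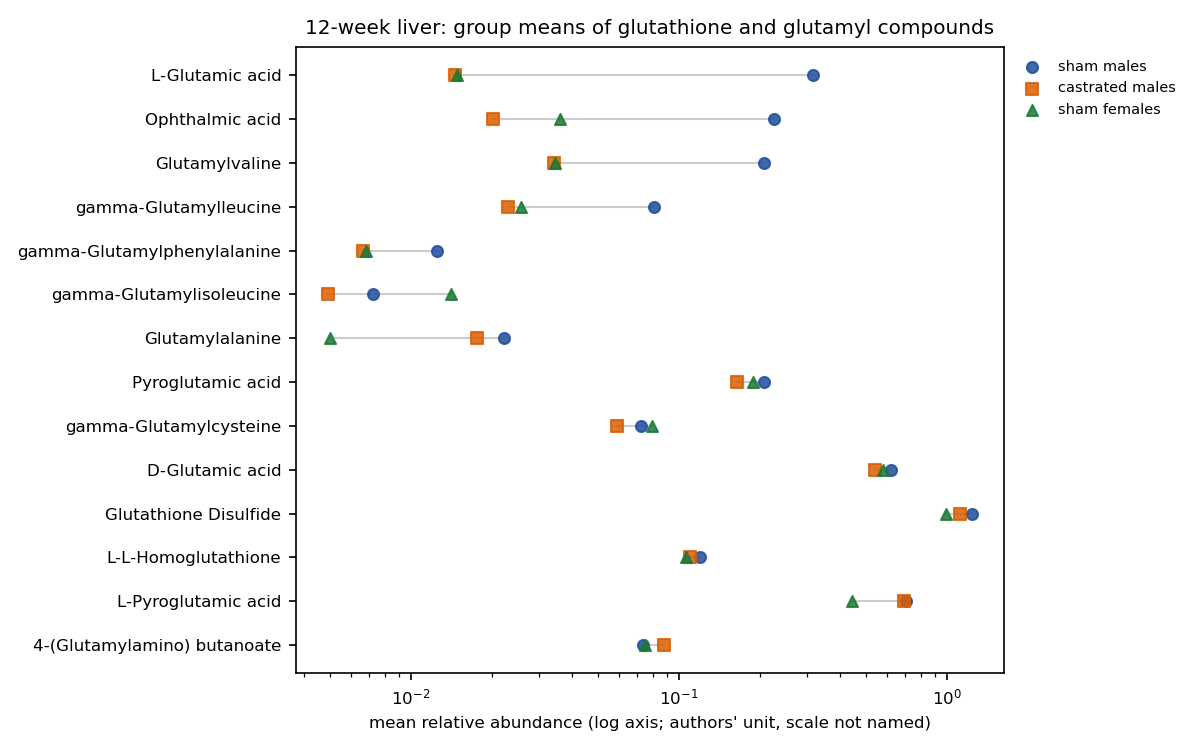
Group means of the 14 glutathione and glutamyl compounds in 12-week liver, on a log axis in the authors' unit of relative abundance, whose scale is not named; circles are sham males, squares castrated males and triangles sham females, each 1 mean without a spread. L-Glutamic acid, ophthalmic acid, glutamylvaline and gamma-glutamylleucine lie far to the left of the sham male mean in both other groups, while the 3 means of glutathione disulfide and of D-glutamic acid lie close together.

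The other 12-week liver compounds had castrated male means within 2-fold of those in sham males, and in females glutamylalanine was the exception. Gamma-glutamylphenylalanine had means of 0.0125, 0.00665 and 0.00679 in sham males, castrated males and females, 1.88-fold and 1.84-fold lower and so just inside the 2-fold limit. Glutamylalanine had a castrated male mean of 0.0177 beside 0.0224 in sham males, and a female mean of 0.00498 that was 4.49-fold lower. Gamma-glutamylisoleucine, an isomer of gamma-glutamylleucine with the same mass, had means of 0.00722, 0.00491 and 0.0141. Its female mean was thus 1.96-fold higher, where that of the leucine dipeptide was 3.15-fold lower.

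Apart from ophthalmic acid, the glutathione side of the same liver table lay closer to the sham male means. Glutathione disulfide, the oxidized dimer, had means of 1.24, 1.12 and 0.994 in sham males, castrated males and females. Gamma-glutamylcysteine, the direct precursor of glutathione, had means of 0.0724, 0.0588 and 0.0796, and L-L-homoglutathione 0.120, 0.110 and 0.106. No entry of this table was named glutathione itself. D-Glutamic acid, the mirror image of the L form, had means of 0.621, 0.541 and 0.579. Relative to the D form, the entry named L-glutamic acid thus had a log2 change of -4.24 in castrated males and -4.32 in females. The sources used here do not give how the mirror images were told apart.

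Pyroglutamate is listed in 4 tables under a pair of names, L-pyroglutamic acid and pyroglutamic acid. In 12-week liver L-pyroglutamic acid had means of 0.704, 0.694 and 0.444, and pyroglutamic acid 0.207, 0.165 and 0.188. In 12-week serum both entries had higher means than in sham males. L-Pyroglutamic acid was 1.27-fold higher in castrated males and 1.78-fold higher in females, and pyroglutamic acid 1.37-fold and 1.64-fold higher. In 18-month liver L-pyroglutamic acid had means of 0.00393, 0.00883 and 0.00489, 2.25-fold higher in castrated males. This was the only compound of the set past the limit there for castration, 1 of 13 against 10.5% of all compounds. It stood at the 5.03rd percentile of abundance. In 18-month serum its means were 0.356, 0.463 and 0.382.

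Kidney pyroglutamate stayed within 2-fold of the sham male means, with the largest ratio in females at 12 weeks. L-Pyroglutamic acid had 12-week kidney means of 0.0371, 0.0329 and 0.0503 in sham males, castrated males and females, 1.36-fold higher in females, and 18-month means of 0.743, 0.659 and 0.710. Pyroglutamic acid had 12-week means of 0.0448, 0.0438 and 0.0464, and 18-month means of 0.411, 0.540 and 0.409, 1.31-fold higher in castrated males.

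Glutamate in the other tables showed no difference of the size seen in 12-week liver. L-Glutamic acid had 12-week kidney means of 46.0, 42.5 and 41.3 in sham males, castrated males and females, and 18-month kidney means of 5.52, 4.89 and 5.33. Its 12-week serum means, multiplied by 1000000 as all values of that table here, were 8.78, 8.66 and 11.3. In 18-month serum they were 0.106, 0.0767 and 0.0588, lowest in females by 1.81-fold. D-Glutamic acid had kidney means of 15.2, 12.0 and 12.8 at 12 weeks and 14.4, 11.7 and 13.4 at 18 months. Its 18-month liver means were 2.81, 3.38 and 1.51, and its 18-month serum means were 0.362, 0.243 and 0.182, with the female mean 1.99-fold lower and just inside the limit. The 18-month liver table held no entry named L-glutamic acid. N-Acetylglutamic acid, the activator of the first enzyme of the urea cycle in mitochondria, had 12-week serum values of 1.75, 3.85 and 1.40, so the castrated male mean was 2.20-fold higher and the female mean 1.25-fold lower.

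**Figure D2:**
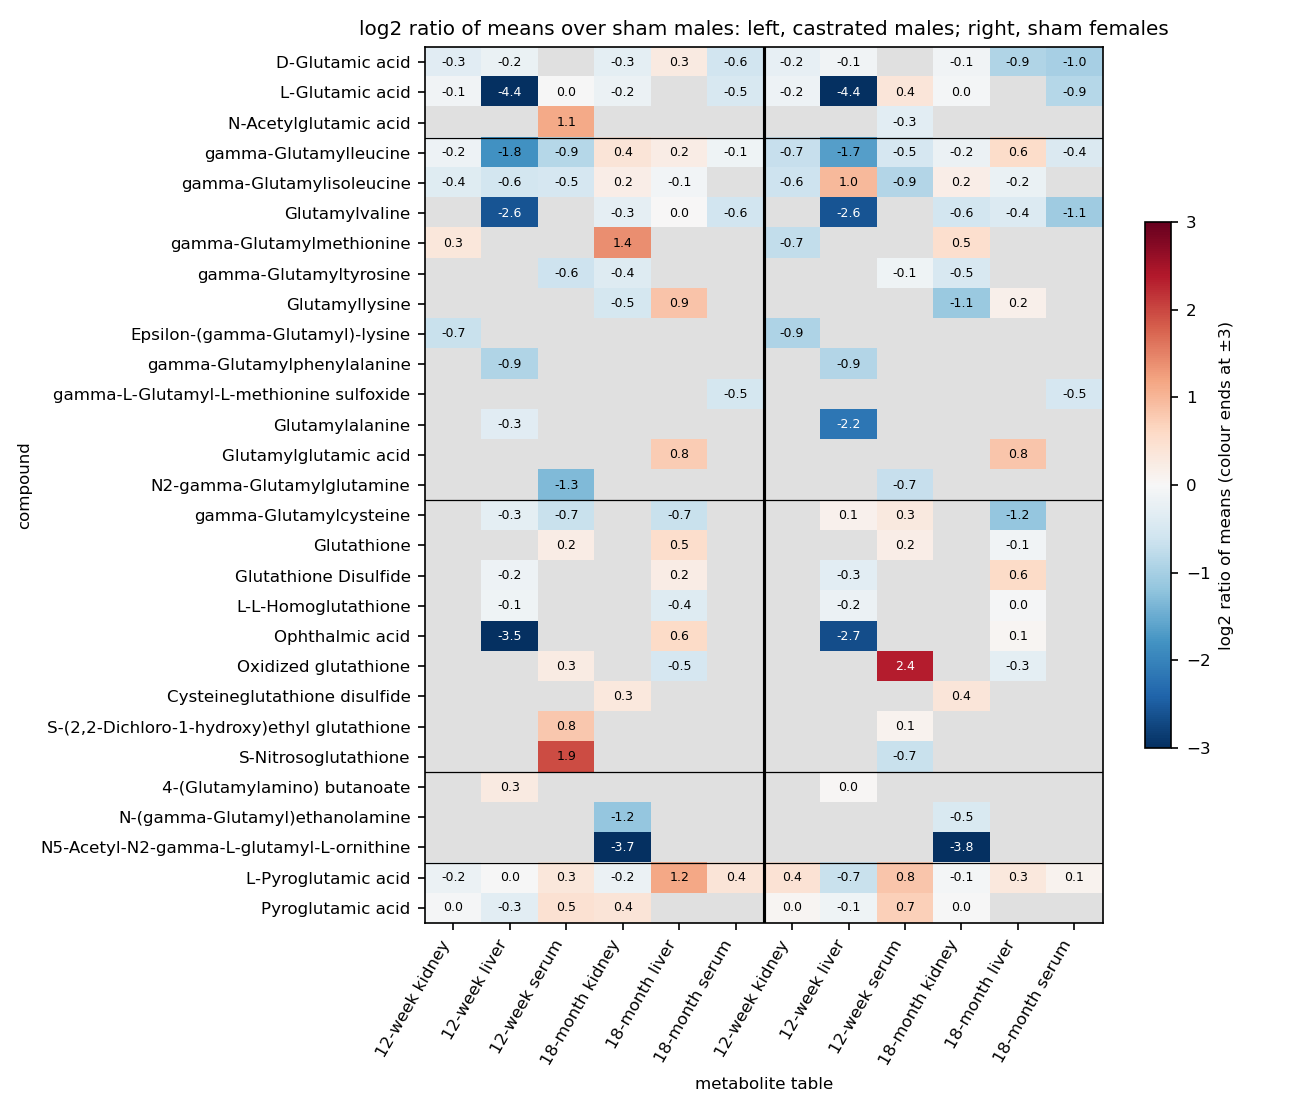
Log2 ratio of the castrated male mean (left block) and the female mean (right block) over the sham male mean for the 29 names in the 6 metabolite tables; rows are compounds grouped by structure, columns are tables, grey means no entry, and colour ends at 3 in either direction. Among the darkest blue cells are L-glutamic acid and ophthalmic acid in 12-week liver and the acetylated glutamyl ornithine in 18-month kidney, and the darkest red cell is the female mean of oxidized glutathione in 12-week serum.

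Reduced glutathione was listed in 18-month liver and 12-week serum. In 18-month liver its means were 27.6 for sham males, 39.7 for castrated males and 25.6 for females, 1.44-fold higher in castrated males and 1.08-fold lower in females. Gamma-glutamylcysteine had a lower mean in the castrated males, with 0.196, 0.123 and 0.0880 across the groups, and its female mean was 2.22-fold lower. That was the only compound of the 13 past the limit in females, against 13.5% of all compounds in the table. The log2 ratio of glutathione to its precursor was therefore higher by 1.198 in castrated males and by 1.04 in females than in sham males.

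Ophthalmic acid in 18-month liver had means of 0.0295, 0.0443 and 0.0307, 1.501-fold higher in castrated males, where the 12-week liver table had it 11.2-fold lower. The ages were measured and scaled apart and no test between them was possible. L-L-Homoglutathione had means of 0.0245, 0.0188 and 0.0240. The oxidized dimer appeared under a pair of names whose means were ordered differently. Glutathione disulfide had means of 5.69, 6.60 and 8.51, while oxidized glutathione had 1.63, 1.14 and 1.33. The ratio of glutathione to the first was higher by 0.31 log2 units in castrated males and lower by 0.69 in females, and to the second it was higher by 1.04 and 0.18. The direction of a reduced to oxidized ratio in females thus depended on which entry was used.

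**Figure D3:**
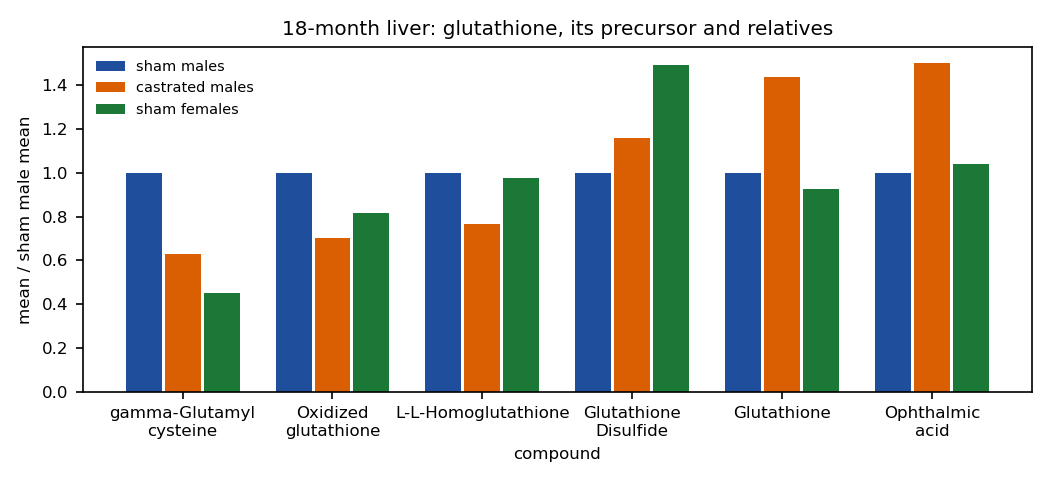
Group means of glutathione and its relatives in 18-month liver divided by the sham male mean (y axis, no unit, starting at 0); bars are sham males, castrated males and sham females, 1 mean each without a spread. Glutathione and ophthalmic acid are highest in castrated males, gamma-glutamylcysteine is lowest in females, and the entries for the oxidized dimer differ in direction.

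In 12-week serum, S-nitrosoglutathione, the carrier of nitric oxide on the glutathione thiol, had values of 0.0430, 0.166 and 0.0271 in sham males, castrated males and females. Its castrated male mean was 3.86-fold higher, and the compound stood at the 1.07th percentile of abundance. Oxidized glutathione had values of 0.147, 0.175 and 0.755, 5.14-fold higher in females and at the 6.83rd percentile of abundance. Glutathione itself had 2.44, 2.83 and 2.79, so the ratio of glutathione to its oxidized form was lower by 2.17 log2 units in females and by 0.04 in castrated males. Gamma-glutamylcysteine had values of 4.96, 3.12 and 6.05, 1.59-fold lower in castrated males. The entry named S-(2,2-Dichloro-1-hydroxy)ethyl glutathione, a conjugate, had 1.48, 2.59 and 1.58. In all 3 of the 13 serum compounds passed the limit in castrated males, 2 higher and 1 lower, against 12.8% of all compounds. In females 1 of 13 passed, against 18.4%. The median log2 ratio of the 13 was 0.21 in castrated males and 0.09 in females, beside -0.04 and 0.07 over all compounds. The direction of both medians depended on the choice of compounds, as they were -0.51 and -0.12 over the 9 names with glutathione or glutamyl alone. Without the faintest 25% of the table the castration median was -0.0199. The kidney tables listed neither glutathione nor its dimer. Cysteineglutathione disulfide, the mixed disulfide, had 18-month kidney means of 0.0816, 0.101 and 0.106.

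Gamma-glutamyl dipeptides other than gamma-glutamylcysteine had lower means than in sham males in serum at both ages. Gamma-glutamylcysteine had a higher female mean in 12-week serum, 6.05 beside 4.96 in sham males. In 12-week serum gamma-glutamylleucine had values of 5.96, 3.30 and 4.18, gamma-glutamylisoleucine 2.19, 1.54 and 1.19, and gamma-glutamyltyrosine 2.05, 1.34 and 1.89. N2-gamma-Glutamylglutamine had 7.06, 2.81 and 4.40, 2.51-fold lower in castrated males. All 4 were lower in both other groups, with log2 ratios from -1.33 to -0.51 in castrated males and from -0.88 to -0.12 in females. In 18-month serum glutamylvaline had means of 0.0545, 0.0365 and 0.0260, 2.10-fold lower in females. Gamma-glutamylleucine had 0.174, 0.158 and 0.130, and gamma-L-Glutamyl-L-methionine sulfoxide 0.0303, 0.0211 and 0.0214.

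For 18-month serum as a whole, none of 6 compounds passed the limit in castrated males, where 15.3% of all compounds did, and 1 of 6 in females, where 21.4% did. The 6 had median log2 ratios of -0.50 and -0.68, beside 0.00 and -0.08 over all compounds. L-Pyroglutamic acid alone of the 6 had a mean above that of sham males. Of all compounds, 50.3% lay above in castrated males and 45.5% in females.

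The 12-week kidney dipeptides were lower in females. Gamma-glutamylleucine had means of 1.76, 1.57 and 1.09, gamma-glutamylisoleucine 0.608, 0.474 and 0.397, and gamma-glutamylmethionine 0.0759, 0.0963 and 0.0456. Epsilon-(gamma-Glutamyl)-lysine, the bond that transglutaminase makes between proteins, had means of 0.284, 0.178 and 0.148 and was 1.91-fold lower in females. The 4 female log2 ratios ran from -0.93 to -0.62. No compound of the 8 reached 2-fold in either comparison, where 9.54% of all compounds did for castration and 13.4% for sex. The median log2 ratio of the 8 was -0.17 for castration and -0.43 for sex, beside 0.03 and 0.05 over all compounds.

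In 18-month kidney the dipeptides did not share a direction. Gamma-glutamylmethionine had means of 0.0299, 0.0787 and 0.0428, 2.63-fold higher in castrated males. Glutamyllysine had 0.0215, 0.0150 and 0.01003, 2.15-fold lower in females. Gamma-glutamylleucine had 0.0872, 0.114 and 0.0773, gamma-glutamylisoleucine 0.0165, 0.0190 and 0.0190, glutamylvaline 0.0494, 0.0409 and 0.0336, and gamma-glutamyltyrosine 0.0321, 0.0244 and 0.0232. Of the 6 dipeptides, 3 had higher and 3 lower means in castrated males than in sham males. Of all compounds, 54.1% had a higher mean in castrated males.

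In 18-month liver the dipeptides other than gamma-glutamylcysteine stayed within 2-fold. Glutamylglutamic acid had means of 0.01003, 0.0171 and 0.0178, and glutamyllysine 0.0171, 0.0311 and 0.0190. Glutamylvaline had 0.0303, 0.0304 and 0.0229 and gamma-glutamylisoleucine 0.949, 0.895 and 0.821. Gamma-glutamylleucine had 0.00190, 0.00223 and 0.00278, at the 1.05th percentile of abundance. The 2 dipeptides that were among the lowest ratios of 12-week liver, glutamylvaline and gamma-glutamylleucine, had castrated male log2 ratios of 0.01 and 0.23 here. Over the 13 compounds of 18-month liver the median log2 ratio was 0.23 for castration and -0.03 for sex, beside 0.04 and 0.05 over all compounds.

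N5-Acetyl-N2-gamma-L-glutamyl-L-ornithine, a glutamyl derivative of the urea cycle amino acid ornithine, was listed in 18-month kidney alone. Its means were 0.0201 for sham males, 0.001502 for castrated males and 0.00146 for females, 13.4-fold and 13.8-fold lower. It ranked 6 from the bottom of 985 ratios for castration and 10 for sex. By mean over the groups, which includes the sham male value, it stood at the 9.75th percentile of abundance. Its castrated male and female means lay below 0.00469, the mean over the groups of the next compound, which stood at the 5.48th percentile. N-(gamma-Glutamyl)ethanolamine had means of 0.00647, 0.00289 and 0.00470, 2.24-fold lower in castrated males and at the 5.48th percentile. With gamma-glutamylmethionine, 3 of 13 compounds of 18-month kidney passed the limit for castration, against 12.8% of all compounds, and 2 of 13 for sex, against 19.1%. The 13 had median log2 ratios of -0.17 and -0.10, beside 0.03 and -0.09 over all compounds. The name 4-(Glutamylamino) butanoate, a glutamyl derivative of gamma-aminobutyrate, was listed in 12-week liver alone, with means of 0.0732, 0.0880 and 0.0750. A related name outside the rule, L-N-(3-Carboxypropyl)glutamine, was listed in 12-week kidney and is given under other observations. Whether both names stand for the same compound was not tested.

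**Figure D4:**
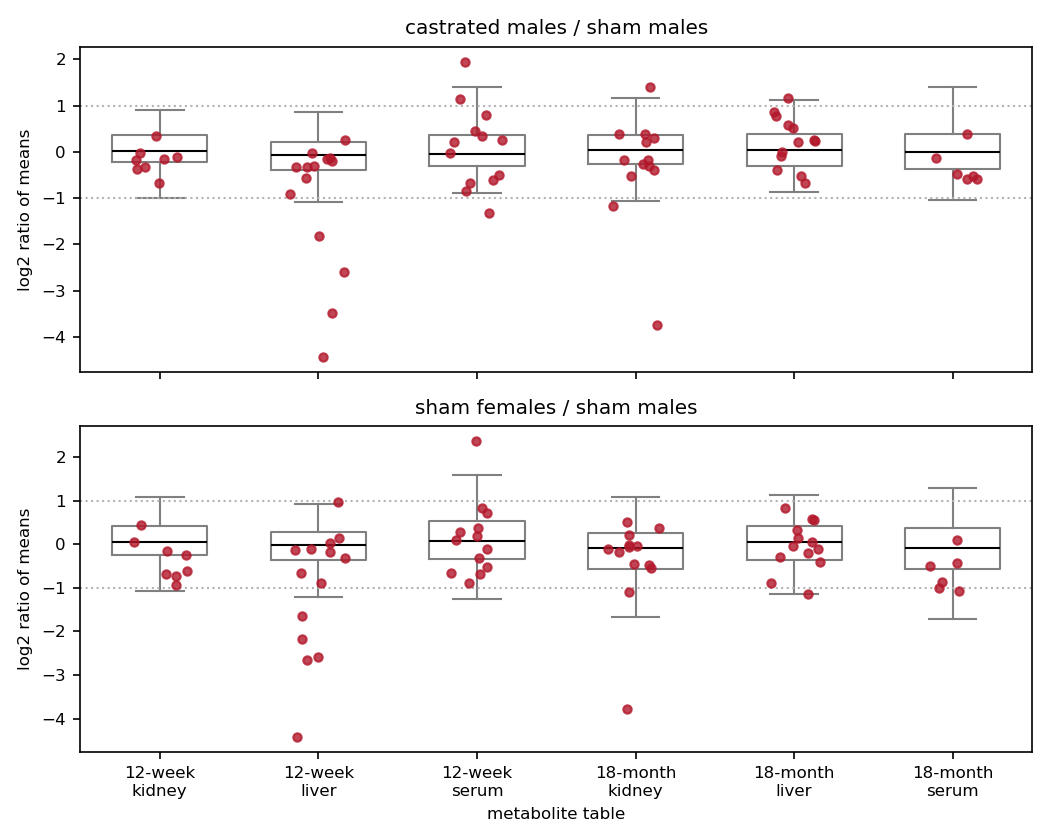
Log2 ratios of group means over sham males in the 6 tables, castrated males above and sham females below; boxes give the quartiles and median of all compounds of the table, whiskers the 5th and 95th percentiles, red points the glutathione and glutamyl compounds (spread sideways at random), and dotted lines the 2-fold limit. The points of 12-week liver reach -4.44 and those of 18-month kidney -3.79, well below the lower whiskers, while most other points fall between the dotted lines.

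The free amino acids of the dipeptides were set beside them, a pairing made after the values were seen. In 12-week liver free L-valine had log2 ratios of 0.12 in castrated males and 0.10 in females, where glutamylvaline had -2.60 and -2.59. Free L-leucine had -0.17 and -0.49, where gamma-glutamylleucine had -1.82 and -1.66. Free L-phenylalanine had -0.06 and -0.05, where its dipeptide had -0.91 and -0.88. In 12-week serum L-leucine had 0.41 and 1.13 where its dipeptide had -0.85 and -0.51. In 18-month kidney L-methionine had -0.24 and -0.95 where gamma-glutamylmethionine had 1.39 and 0.51. In 18-month serum L-valine had -0.20 and 0.32 where glutamylvaline had -0.58 and -1.07. Over the 17 pairs that the tables allow, the log2 ratio of the dipeptide was lower than that of its amino acid by at least 1 in 3 pairs for castration and in 6 for sex. It was higher by as much in 1 pair in each comparison, that of methionine in 18-month kidney. The other pairs differed by less.

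Other compounds of cysteine, glycine, methionine and serine metabolism were taken from a list of name fragments. For castration 3 of 24 passed 2-fold in 12-week kidney, where 9.54% of all compounds did, 2 of 21 in 12-week liver (10.0%) and 0 of 22 in 12-week serum (12.8%). At 18 months 5 of 33 passed in kidney (12.8% of all compounds), 2 of 26 in liver (10.5%) and 4 of 15 in serum (15.3%). For sex 6 of 24 passed in 12-week kidney (13.4%), 1 of 21 in 12-week liver (12.1%) and 1 of 22 in 12-week serum (18.4%). At 18 months 6 of 33 passed for sex in kidney (19.1%), 1 of 26 in liver (13.5%) and 5 of 15 in serum (21.4%). The name fragments also took glycine conjugates and anserine. Among the free compounds, hypotaurine, the precursor of taurine in cysteine breakdown, had 12-week kidney means of 1.46, 0.415 and 0.443. S-Adenosyl-L-methionine, the methyl donor, had 12-week liver means of 0.556, 0.277 and 0.304, and its product S-adenosyl-L-homocysteine 18-month kidney means of 1.0002, 0.494 and 0.541. In females glycine had a log2 ratio of -1.11 in 12-week kidney and D-serine one of -1.16 in 18-month kidney. Cysteinylglycine, the dipeptide that gamma-glutamyltransferase leaves of glutathione, had means of 0.194, 0.187 and 0.182 in 12-week liver and 0.175, 0.251 and 0.164 in 18-month liver.

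The other entries of that list that passed 2-fold were mostly acyl glycines. For castration they were phenylalanyl-glycine and sulfolithocholylglycine in 12-week kidney and isobutyrylglycine in 12-week liver. In 18-month kidney they were N-acetyl-L-cysteine, tiglylglycine, anserine and isoleucyl-glutamine, and in 18-month liver oleoyl glycine and racemethionine. Racemethionine is a name for methionine itself, with a log2 ratio of -1.15 where the L-methionine entry of 18-month liver had -0.35. In 18-month serum they were propionylglycine, N-propionylglycine, N-trans-cinnamoylglycine and phenylpropionylglycine. For sex, isobutyrylglycine passed in both kidney tables and 18-month serum, sulfolithocholylglycine in both kidney tables and 18-month liver, and phenylalanyl-glycine and isovalerylglycine in 12-week kidney. Cinnamoylglycine passed in 12-week liver and L-anserine in 12-week serum. In 18-month kidney N-isovaleroylglycine, N-acetyl-L-methionine and isoleucyl-glutamine passed, and in 18-month serum N-trans-cinnamoylglycine, DL-methionine sulfoxide, propionylglycine and phenylpropionylglycine.

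The RNA of the same tissues was read for a list of 44 genes of the glutathione and gamma-glutamyl cycle, its transporters and glutamate metabolism. Values are the authors' group means, in FPKM (fragments per kilobase of transcript and per unit of sequencing depth) at 12 weeks and in an unnamed unit at 18 months. "Rose" and "fell" refer to an adjusted p under 0.05 in the authors' deposited tables. At 12 weeks those tables list each gene for 1 of 3 comparisons only, so the counts are lower bounds and the listing may itself select genes. Labelled tissues held the markers read for them, apart from Alb in 12-week liver. Slc34a1, a proximal tubule phosphate transporter, ranged from 1199 to 1533 FPKM in 12-week kidney and stayed at or below 0.490 in liver, and Apoa1, a hepatocyte apolipoprotein, ranged from 10541 to 14716 FPKM in liver. Alb, the other main hepatocyte gene, was listed at the lowest value of the table in every group of 12-week liver. In 12-week kidney its group means ran from 8.78 to 10.3 FPKM, above those of liver. In whole tissue, fewer cells of a type and less RNA per cell cannot be told apart.

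In 12-week kidney 4 of the 16 list genes that were listed for castration rose and 10 fell, where 48.6% of all genes listed for it were called. The list's median difference of log2(mean + 1) was -0.14 for castration and -0.31 for sex, beside 0.02 and -0.01 over all genes. Gclm, the modifier subunit of glutamate-cysteine ligase, fell after castration from 283 to 129.9 FPKM, beside 129 in females. Gss, glutathione synthetase, fell from 305 to 139.7 with 161 in females, and Ggct, gamma-glutamylcyclotransferase, from 115 to 32.5 with a female mean of 51.8. For these genes the authors' deposited table gives an adjusted p of 4.76e-04 for each of the 3. Other list genes, among them Cndp2, Slc1a4 and Cbs, share exactly this value for castration, so it does not rank them. Oplah, 5-oxoprolinase, rose from 43.3 to 82.8, with an adjusted p of 0.00127 in the authors' deposited table and a female mean of 78.4. These 3 genes of synthesis and turnover thus had lower means in both other groups than in sham males, while the gene of the step from pyroglutamate to glutamate had higher ones.

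Cndp2, a cytosolic dipeptidase that also splits cysteinylglycine, fell in 12-week kidney from 755 to 110.4 FPKM with 93.0 in females. The neutral amino acid carriers moved apart, as Slc1a4 fell from 7.20 to 2.35 and Slc1a5 rose from 31.4 to 59.8. Cbs, which starts the transfer of sulfur from homocysteine to cysteine, fell from 76.3 to 32.5. Gclc, the catalytic subunit of the ligase, was listed for sex and fell from 68.2 in sham males to 44.3 in females, with an adjusted p of 0.00326 in the authors' deposited table. Ggt1, gamma-glutamyltransferase, had means of 931, 807 and 822 FPKM and an adjusted p of 0.664 for sex in that deposited table of the authors. Among genes listed for sex, 3 of 12 list genes were higher and 7 lower in females, against 81.4% of all genes listed.

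At 18 months the authors' table gives each comparison for a gene side by side, and all 44 list genes were tested in kidney. Of these, 8 rose and 18 fell in castrated male kidney, where 22.7% of all genes were called. By group means the list's median difference was -0.04 and that of all genes 0.13, while in the authors' deposited table the medians of the log2 fold changes were -0.23 and -0.01. The following log2 fold changes and adjusted p come from the authors' deposited table and so do not carry the shift of the means. Gclm fell by 0.78 (adjusted p 1.2e-15), from a mean of 170.2 to 110.0 after castration. Gss fell by 0.83 (adjusted p 3.2e-14), from 207 to 129.7, and Ggct by 1.26 (adjusted p 9.4e-23), from 53.8 to 23.3. Ggt1 fell by 0.86 (adjusted p 2.6e-15), from 730.1 to 443, and its female mean was 486. Gclc and Oplah did not pass the authors' test, with means of 80.4 and 72.5 and of 61.2 and 62.5 in sham and castrated males, and adjusted p of 0.0635 and 0.451.

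Peptidases and glutamate enzymes completed the 18-month kidney picture. Cndp2 fell from 857.5 to 192 and Lap3, a leucine aminopeptidase, from 293 to 147. Slc1a4 fell from 10.4 to 3.25 and Cbs from 119.7 to 62.9. Ggh, gamma-glutamyl hydrolase, which trims the glutamate tail of folates, rose from 20.3 to 35.9. Glul, glutamine synthetase, rose from 316 to 637, with 769 in females, and Abcc4, an exporter of organic anions, from 19.0 to 43.5. The authors' deposited table gives adjusted p from 7.7e-69 for Cndp2 to 1.1e-05 for Abcc4 among these 7. For sex, 7 of 44 genes were higher and 12 lower in females, against 16.8% of all genes, and the medians in the authors' deposited table were -0.11 for the list and -0.01 for all genes. Ggt1 and Ggct were among those lower, while Gclm and Gss, with female means of 163 and 180.1, did not pass.

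**Figure D5:**
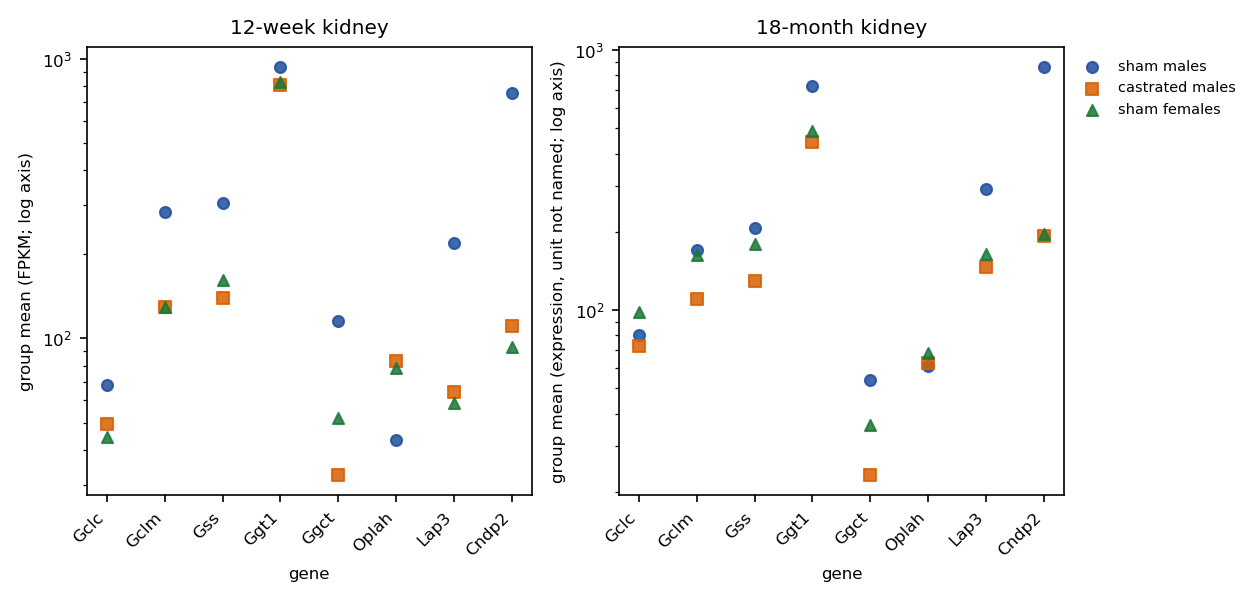
Group means of 8 genes of glutathione synthesis, turnover and peptide breakdown in 12-week kidney (left, FPKM) and 18-month kidney (right, unit not named), both on log axes; circles are sham males, squares castrated males and triangles sham females, 1 mean each without a spread. Gclm, Gss, Ggt1, Ggct, Lap3 and Cndp2 are highest in sham males at both ages. Gclc is highest in sham males at 12 weeks and in females at 18 months. Oplah is lowest in sham males at both ages. At 18 months its means of 61.2, 62.5 and 68.7 in sham males, castrated males and females lie close together.

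In 12-week liver 3 of the 17 list genes that were listed for castration rose and 7 fell, against 24.9% of all genes listed. The list's median difference was -0.03 for castration and 0.04 for sex, beside -0.02 for all genes in both. Gclc fell from 112 to 74.1 FPKM with 62.2 in females, and Gsr, glutathione reductase, from 27.9 to 14.2 with 14.2 in females. Lap3 fell from 163 to 79.7, Slc3a1, the heavy chain of the cystine carrier, from 16.2 to 5.31, and Cbs from 197 to 92.5. Got2, the mitochondrial aspartate aminotransferase that uses glutamate, fell from 129.7 to 80.4, while Gpt, alanine aminotransferase, rose from 99.6 to 143. Abcc2, the canalicular pump that carries glutathione and its conjugates into bile, rose from 165.0 to 273. The authors' deposited table gives adjusted p from 8.56e-04 to 0.0111 for these 8.

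Gclm, Gss, Ggct and Oplah were not listed for either comparison of 12-week liver. Gclm had means of 170.0, 122 and 124 FPKM in sham males, castrated males and females, and Gss 64.7, 65.8 and 76.5. Ggct had 16.9, 13.3 and 21.9, and Oplah 35.2, 55.7 and 43.4. Ggt1 was near the bottom of the scale, with 0.241, 0.586 and 0.146. For sex, 1 list gene was listed, Gls2, the liver glutaminase, which rose from 235 to 399.8 FPKM in females, and 100% of the genes listed for that comparison were called.

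In 18-month liver 1 of 44 list genes passed for castration, against 2.09% of all genes. In the authors' deposited table the list's median log2 fold change was -0.03 for castration and -0.07 for sex, beside -0.01 and -0.05 over all genes. It was Abcc4, which rose from 0.577 to 2.56, below the mean of 5 used to name genes. The 6 enzymes of the cycle did not pass, with adjusted p from 0.528 for Ggct to 0.994 for Oplah in the authors' deposited table. Their means in sham and castrated males were 97.9 and 104.4 for Gclc, 79.6 and 85.6 for Gclm, 38.9 and 47.3 for Gss, 6.93 and 12.4 for Ggct, 36.1 and 40.5 for Oplah and 0.0400 and 0.0900 for Ggt1. By group means the median difference over all genes was 0.13, so these means carry a shift. In the authors' deposited table the log2 fold changes were -0.12 for Gclc, -0.05 for Gclm and -0.009 for Oplah. Those of Gss, Ggct and Ggt1 were 0.12, 0.70 and 1.16. For sex, 5 of 43 tested genes were higher and 6 lower in females, against 9.78% of all genes. Gclc was among the lower, with a female mean of 61.4, a log2 fold of -0.90 and an adjusted p of 0.0159 in the authors' deposited table.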

How the data were processed

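Per the file headers, the authors deposited untargeted metabolite tables as 1 mean per group, a signal of relative abundance per compound, named from its fragmentation. The sources used here do not give scale, filters or how many animals were measured, and 2 unnamed entries were left out. The authors' RNA values are group means, in FPKM at 12 weeks per the labels and in an unnamed normalized signal at 18 months. The tools HISAT2, SAMtools and Cufflinks and the build mm10 are named in the submitters' processing notes. The authors also deposited adjusted p-values at both ages and log2 fold changes from DESeq2 at 18 months. Those log2 columns hold the second-named group over the first. Their sign was turned, after which all 378, 543, 379 and 725 genes with group means above 1 that differed by 2-fold, in the 4 comparisons, had the sign of the means. The depth per library is unknown from group means.

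Computed here, with Python 3.11.15, pandas 2.3.3 and numpy 2.4.6, were log2 ratios of group means, their medians and counts past 2-fold, without pseudocount, and for genes log2(mean + 1). A check on sham male means multiplied by set ratios returned those ratios. That outcome is fixed by the arithmetic, so it does not test the results. No test across animals was possible, and p-values are the authors'. Compounds in 3 or more tables or past 2-fold are given in full. Genes named are the 8 called list genes with the largest castration difference per tissue and age and a larger mean of at least 5, plus 6 cycle enzymes in every table. Gls2 and Abcc4 in liver and the cysteinylglycine, glutamine and free amino acid values were named after their values were seen. The compounds and lists were chosen with earlier results of these data known. Alternatives were centring, a narrower name rule, leaving out faint compounds, a 1.5-fold limit and, for genes, a stricter p and a minimum mean.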

Additional observations from a re-analysis of the deposited data

How the results depend on the processing

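No paired analysis was possible because the files hold group means, and for the same reason no replicate could be left out in turn. Centring each table on its median moved each of the 134 single ratios by under 0.1 log2. It kept the sign of 127 and changed that of 7, whose reported ratios were at most 0.065 in size. It left 0 compounds past 2-fold for sex in 18-month serum. Of 36 medians under the alternatives 24 stayed within 0.1 log2, of 48 counts 33 within 1.5 times, and of 16 gene counts 14. Where values changed beyond that, the cause was not tested.

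With names limited to glutathione, glutamyl and ophthalmic, the median in 12-week serum turned to -0.51 for castration and -0.12 for sex. It became -0.71 for sex in 12-week kidney, -0.45 and -0.60 for castration and sex in 12-week liver, -0.46 for sex in 18-month kidney and -0.50 for sex in 18-month serum. The count for castration in 18-month liver became 0. Without the faintest 25% of each table, the castration median turned to -0.0199 in 12-week serum and became -0.33 in 12-week kidney and -0.31 in 18-month serum. The sex median became -0.62 in 12-week kidney and -0.21 in 18-month liver. Counts became 0 for sex in 12-week serum, 18-month kidney and 18-month serum, 1 for castration in 18-month kidney and 0 for castration in 18-month liver. At a 1.5-fold limit, counts became 1 and 4 for castration and sex in 12-week kidney, 8 for sex in 12-week liver, 7 and 6 in 12-week serum, 5 and 3 in 18-month liver and 3 for sex in 18-month serum. With a larger mean of at least 5, called genes in 18-month liver were 0 for castration and 7 for sex.

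Every metabolite value is a mean without a spread, so no limit from depth or signal over background could be set. Several compounds past 2-fold were faint: in 18-month kidney and 12-week serum they include entries under the 10th percentile of abundance.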

Other observations

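Some compounds of glutamate chemistry were outside the name rule. L-N-(3-Carboxypropyl)glutamine in 12-week kidney had means of 0.741 for sham males, 0.176 for castrated males and 0.0518 for females, 4.22-fold and 14.3-fold lower, and ranked 10 and 4 from the bottom of 723 ratios. N-Acetyl-L-glutamate, whose name lacks the words of the rule, had means of 0.803, 0.581 and 1.17 in 12-week liver and 7.20, 4.98 and 6.48 in 18-month liver. Peptides with glutamate in second place were also left out. Tyrosyl-gamma-glutamate in 18-month liver had means of 0.0237, 0.0107 and 0.0169, 2.21-fold lower in castrated males, and in 12-week kidney it had 0.137, 0.191 and 0.314.

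L-Glutamine, the amide of glutamate, had 12-week kidney means of 2.30, 1.31 and 1.52 in sham males, castrated males and females, and 18-month kidney means of 1.96, 1.40 and 1.53. In 18-month liver its means were 2.54, 3.28 and 1.51, beside 2.81, 3.38 and 1.51 for D-glutamic acid.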
